A study of Homo sapiens with 131 samples.

Results

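Among single HAP1 cells sorted from mid-S phase, the 10 cells with the most unspliced RNA were compared with the 10 cells with the least. HAP1 is a near-haploid human cell line that grows attached, derived from a chronic myeloid leukemia line. Each cell was taken through scRR-seq, in which the genomic DNA of a lysed cell is held on beads and its RNA is taken from the supernatant, so that a DNA library and a total-RNA library (RamDA-seq, which does not require a poly(A) tail) come from the same cell. The labels list 131 libraries, 63 of them mid-S RNA libraries, and the tables used here hold 56 of those cells. All of them were untreated cells of 1 line and 1 sorting gate, and the study derived them from 1 biological experiment. Tests took cells as replicates, and their p-values cover only the spread between these cells.

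The cells were chosen by their own readout. Only the 29 cells numbered up to 65 were used (the first set). The unspliced values of all 45404 genes were summed in each cell, and the 10 cells with the highest and the 10 with the lowest sum were called intron-rich and intron-poor. The other 9 cells lay between them. The unspliced sum was 1065910 ± 162261 (SD, n = 10) in intron-rich cells and 644062 ± 51838 (n = 10) in intron-poor cells, a ratio of 1.65, which is a consequence of the rule and carries no test. There was no gap at either border. The lowest intron-rich cell had a sum of 867467 and the next cell below it 860697, while the highest intron-poor cell had 713230 and the next cell above it 727277.

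Newly made RNA still contains its introns, and splicing removes them, mostly while the RNA is on the chromosome. Reads from introns therefore come mainly from RNA in the nucleus. Some RNAs stay there after processing: MALAT1 is held in nuclear speckles, NEAT1 builds paraspeckles, RN7SK holds the elongation factor P-TEFb inactive and the U RNAs form the spliceosome. Messenger RNAs are for the most part cytoplasmic, and the transcripts of the mitochondrial genome stay inside mitochondria.

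**Figure D1:**
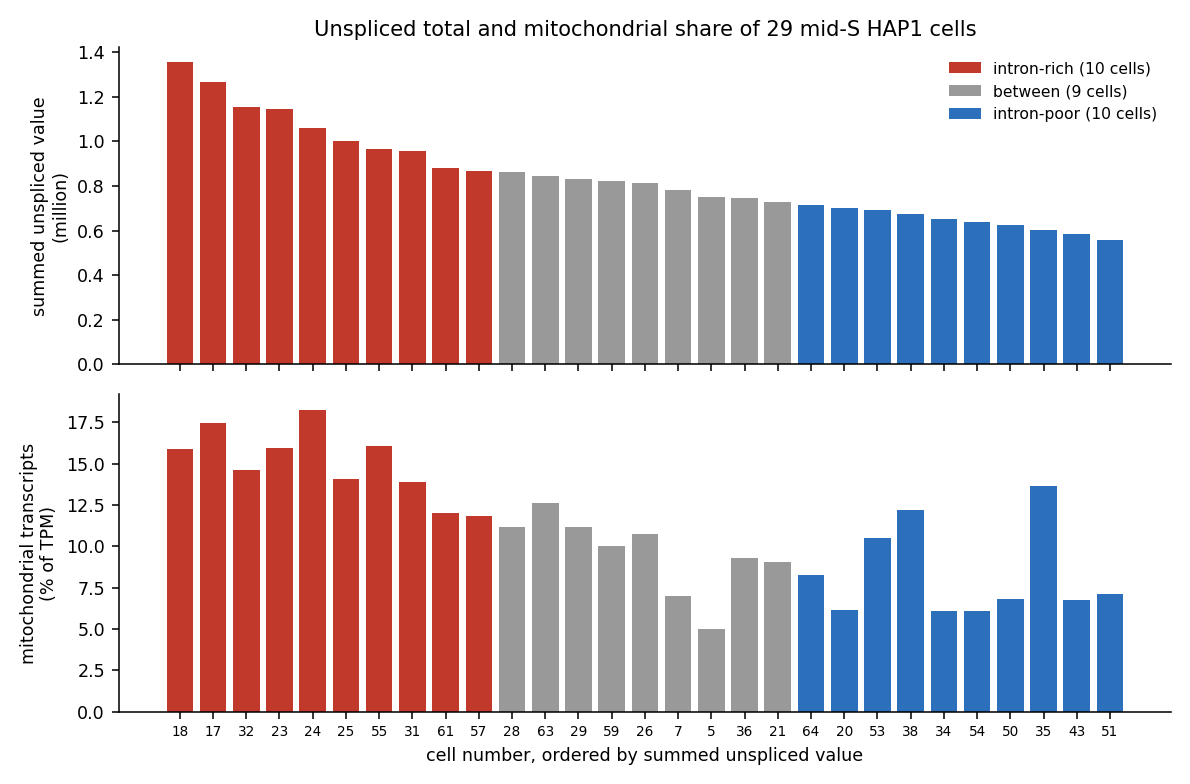
Upper panel, summed unspliced value of each of the 29 cells, in descending order. Lower panel, share of TPM taken by mitochondrial genome transcripts in the same cells. Red bars are intron-rich, grey between and blue intron-poor cells, and the mitochondrial share runs from 11.8% to 18.3% in the red bars and from 6.10% to 13.7% in the blue ones.

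Estimated exon read depth was not higher in intron-rich cells of the first set. The lowest TPM values of a cell fall on steps, and the relative number of exon reads was estimated from the step size. It is expressed here as a ratio to the median of the 29 cells (the number of reads itself is not given by the steps). It was 0.962 ± 0.0767 (SD, n = 10) in intron-rich and 1.05 ± 0.140 (n = 10) in intron-poor cells. Unspliced values per unit of exon depth were 1.76 times as high in intron-rich cells. The step was not equally clear in all cells. In intron-rich cell 55 the chosen step scored 3.89 and the best step of another size 3.87. In intron-poor cell 64 these scores were 4.40 and 4.10, whereas in intron-poor cell 53 they were 6.20 and 2.79. The error of the depth estimate is not known here. The groups were not spread evenly over the cell numbers, which are the only order the labels give. Of the intron-rich cells 7 were numbered up to 32 and 3 were numbered 55 and above, whereas 8 of the intron-poor cells were numbered 33 to 54. Whether the numbers follow plates or preparations is not known here.

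The higher unspliced values were spread over many genes. Of 6453 genes with a mean unspliced value of at least 20 over the 20 cells, 75.2% had a higher mean in intron-rich cells, and the median ratio of means was 1.72, with quartiles at 1.00 and 3.14. On each of the 20 chromosomes whose unspliced values were used the summed mean was higher in intron-rich cells, by a factor of 1.43 on chromosome 17 to 1.97 on chromosome 6. The 100 genes with the highest unspliced values took 18.4% of the sum in both groups. In 0% of these genes, which were summed to choose the cells, did every intron-rich cell lie above every intron-poor cell. Once each cell was scaled to the same unspliced total, a step that removes the difference in sums by construction, the median ratio was 1.04. Of the 6453 genes 51.7% were then above 1. In 21 of the 6453 every intron-poor cell lay above every intron-rich cell after scaling, and in 0 the reverse held. These counts are a description without a test.

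How large the ratio was depended on the gene. Genes were ranked and split into 4 equal parts. By mean exon TPM, the median ratio was 1.29 in the lowest part and 1.96 in the highest. By gene length it was 1.49 in genes of up to 32.5 kb and 1.84 in those of 144 kb or longer. By the share of the 56 cells in which the gene was already replicated (2-copy), it was 1.96 in the latest and 1.59 in the earliest part. Expression, length and replication timing go together along the genome, and their parts in these gradients were not tested apart.

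Genes with no exon reads gave a different figure. The 18272 genes at TPM 0 in all 56 cells still received unspliced values, 98.4 ± 8.62 per Mb of gene (SD, n = 10) in intron-rich and 88.0 ± 8.28 (n = 10) in intron-poor cells, a ratio of 1.12 with overlapping groups. The 10278 genes with exon reads in most of the 56 cells gave 1107 ± 186 per Mb in intron-rich and 627 ± 65.9 in intron-poor cells, a ratio of 1.77. The ratio was thus larger in genes that also had exon reads.

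**Figure D2:**
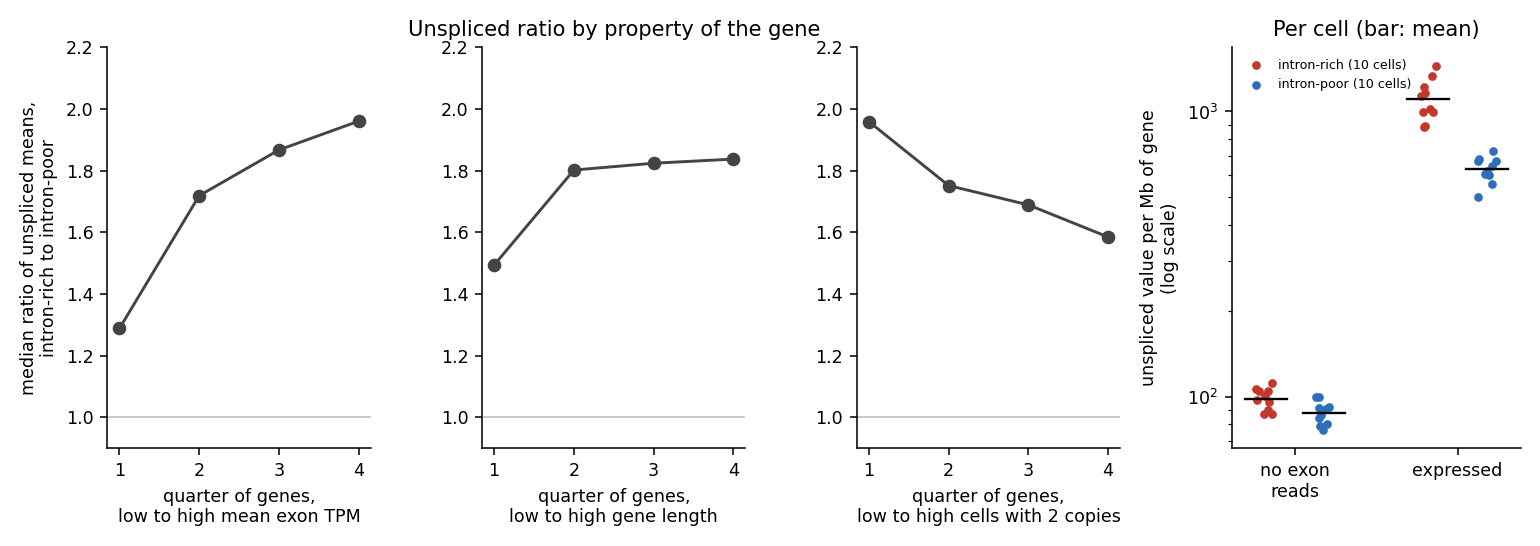
Leftmost 3 panels, median ratio of unspliced means (intron-rich to intron-poor cells) in 4 equal parts of 6453 genes ordered by exon TPM, gene length and share of cells with 2 copies. Rightmost panel, unspliced value per Mb of gene in each cell on a log scale, for genes without exon reads and for expressed genes, with bars at the means. Silent genes reach a ratio of 1.12 and expressed genes 1.77.

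The genes with the largest difference of unspliced means were very long. Unspliced values are not scaled by gene length, so this ranking favours long genes, and it used the values that chose the cells. NLGN1, a synaptic adhesion gene (hg38 chr3:173396284-174286644), led with 406 to 21172 and a median of 8551 in intron-rich cells. In intron-poor cells it had 827 to 5980 and a median of 2442. The highest intron-rich cells stood well above every intron-poor cell, but the lowest intron-rich cell lay below all of them. MIR924HG, the host gene of a microRNA (chr18:39206917-39800322), ranged from 1813 to 17543 in intron-rich and from 1134 to 6012 in intron-poor cells. MECOM, a zinc-finger transcription factor gene, averaged 4144 ± 1997 against 1807 ± 1142 (SD, n = 10 each).

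Others of this rank were LRP1B, DLGAP1, IMMP2L, GRIK2, ROBO2 and ADGRB3, which code for receptors, axon guidance and synapse proteins and, in IMMP2L, a mitochondrial peptidase. Their ratios of means ran from 1.63 in IMMP2L to 3.44 in LRP1B. Once each cell was scaled to the same unspliced total, these ratios ran from 1.02 in IMMP2L to 2.16 in LRP1B. That of NLGN1 was 1.84. LRP1B ran from 6.30 to 16901 with a median of 2322 in intron-rich cells. These 9 genes were each longer than 580 kb. None of them passed in exon TPM, and the smallest adjusted p was 0.0903, for NLGN1, which averaged 52.7 TPM in intron-rich and 10.6 TPM in intron-poor cells.

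By ratio of means, the leading genes were ones that a few intron-rich cells carried and intron-poor cells hardly had. MOXD1, a monooxygenase-like gene, was above 0 in 9 of 10 intron-rich cells with a median of 135 and a highest value of 434, while no intron-poor cell exceeded 0.5. CA3, a carbonic anhydrase gene, reached 2295 in 1 intron-rich cell but had a median of only 3.12. For EFNB2, PLAAT1, NT5DC3, PER2 and CA1, the median in intron-rich cells was 0.1 or less and only 3 to 5 of the 10 cells were above 0. AP000998.2, RP11-1028N23.4 and RP13-259N13.2 filled the remaining ranks. Ratios against values this close to 0 are not given, and these genes were picked from the values that chose the cells. The same selection among cells numbered above 65 (the second set, described further on) gave MOXD1 a ratio of 0.635. There the ratio was also below 1 for CA3, NT5DC3 and AP000998.2, and above 1 for the other genes of this ranking. Exon TPM of MOXD1 averaged 7.41 in intron-rich and 10.3 in intron-poor cells of the first set.

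Exon reads were then examined. The table of spliced RNA was equal to the gene TPM table in 100% of values, so that the 2 count as 1 readout. TPM comes from the same libraries as the unspliced sum and is not fully independent of it. Of 14900 genes tested with limma on log2(TPM + 1), 57 differed at a Benjamini-Hochberg adjusted p under 0.05. In intron-rich cells 21 genes (0.141% of those tested) were higher and 36 (0.242%) were lower. The median difference over all genes tested was -0.06. Of the higher genes 11 lay in the mitochondrial genome, and all 36 lower genes were protein-coding genes of the nucleus, 29 of them with a mean of at least 100 TPM. Of the 14900 genes tested, 11626 were protein-coding genes of the nucleus. The share of tested genes at 100 TPM or more is not given here. Standard errors were smaller in the more abundant of the lower genes (0.096 in EEF1A1, 0.79 in PYROXD1), which eases calls there.

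No gene was called under 2 other settings. With the mitochondrial share of TPM as a covariate limma called 0 genes, with 897 at an unadjusted p under 0.05. The standard errors rose in that fit, and some differences were close in size to those without the covariate while others were smaller. MSH5 went from 1.71 ± 0.28 to 1.63 ± 0.49 (SE), OLMALINC from 1.03 ± 0.23 to 0.97 ± 0.40 and HIF1A from -1.96 ± 0.40 to -2.87 ± 0.68, whereas EIF3L went from -1.14 ± 0.21 to -0.37 ± 0.32. The mitochondrial share is the sum of the mitochondrial transcripts, so their own loss in that fit follows from its construction. A Wilcoxon rank-sum test per gene also called 0, with a lowest adjusted p of 0.117 and 1837 genes at an unadjusted p under 0.05. Ranks of 10 against 10 cells set a lower bound on its p. A single fully separated gene therefore cannot pass adjustment over 14900 genes, and the 0 calls of this test decide little.

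MALAT1 and NEAT1 were the nuclear RNAs named with the rule. Both had an unspliced value of 0 in all 20 cells and so did not enter the choice of cells. MALAT1 (chr11:65497688-65506516) ran from 1900 to 5153 TPM with a median of 3769 in intron-rich cells. In intron-poor cells it ran from 993 to 4659 TPM with a median of 2465. Most of the range was shared. The difference was 0.52 ± 0.24 (SE) on the log2(TPM + 1) scale and did not pass limma's test (adjusted p = 0.336). The 9 cells between the groups had the highest mean, 4304 ± 1611 TPM (SD), above the 3584 ± 1179 TPM of intron-rich cells.

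NEAT1 (chr11:65422774-65445540) ran from 69.02 to 561 TPM with a median of 199.9 in intron-rich cells. The intron-poor cells gave 23.4 to 179 TPM with a median of 124. Intron-rich cells thus reached higher, with a mean 2.01 times as large, but the lowest of them fell inside the intron-poor range. Its difference of 0.93 ± 0.36 (SE) was not called by limma (adjusted p = 0.249). 1 intron-poor cell, number 51, stood apart with the lowest value.

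The wider list of 12 nuclear-retained long non-coding RNAs leaned one way without single members passing. All 11 members tested had a higher mean log2(TPM + 1) in intron-rich cells, none passed at adjusted p under 0.05, and their median difference was 0.88 against -0.06 over all genes. JPX averaged 243 TPM in intron-rich and 129 TPM in intron-poor cells (difference 1.03 ± 0.29, SE, adjusted p = 0.118). FTX, a non-coding gene of the X-inactivation center, averaged 326 ± 134 against 173 ± 83.8 TPM (SD, n = 10 each, adjusted p = 0.172). KCNQ1OT1, an antisense RNA of an imprinted domain, was lower in abundance, at 3.05 and 1.34 TPM. Limma did not call its difference (adjusted p = 0.466). The summed TPM of the list ran from 3120 to 6560 in intron-rich and from 1743 to 5859 in intron-poor cells.

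Long non-coding RNAs as a class showed the same lean. Gene types were taken from GENCODE v44 and were known for 99.7% of the genes tested. The 2187 long non-coding RNAs had a median difference of 0.54 and 74.4% of them were higher in intron-rich cells. Of these genes 3 passed the test, where 0.141% of all genes tested were called higher. The 11626 protein-coding genes of the nucleus had a median of -0.20 and 39.8% were higher. The contrast was present at every level of expression. At a mean log2(TPM + 1) of 5 and above, the median difference was 0.62 for 145 long non-coding RNAs and -0.25 for 3826 protein-coding genes. Pseudogenes lay with the non-coding genes, at 0.48 for 629 genes. The contrast was much smaller in the second set of cells. Medians there were 0.16 for the long non-coding RNAs, 0.15 for the pseudogenes and 0.05, with the opposite sign, for the protein-coding genes.

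Small nuclear and nucleolar RNAs were mixed. Of 9 tested, 6 had a positive difference, none passed, and the median was 0.75. RNU4-1, the U4 RNA of the spliceosome, ran from 1975 to 4355 TPM with a median of 3804 in intron-rich cells. In intron-poor cells it ran from 982 to 3624 TPM with a median of 2265 (difference 0.75 ± 0.20, SE, adjusted p = 0.0903). RN7SK had a median of 4402 TPM in intron-rich and 2858 TPM in intron-poor cells. It was nearly missing from 1 intron-rich cell, number 61, at 0.0100 TPM, where the next lowest held 3286 TPM. That cell turned its mean difference to -0.55, and without it the difference was 0.66 ± 0.21 (SE, limma adjusted p = 0.157). RN7SL1, the RNA of the signal recognition particle and mostly cytoplasmic, averaged 1025 ± 257 and 923 ± 310 TPM (adjusted p = 0.711).

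**Figure D3:**
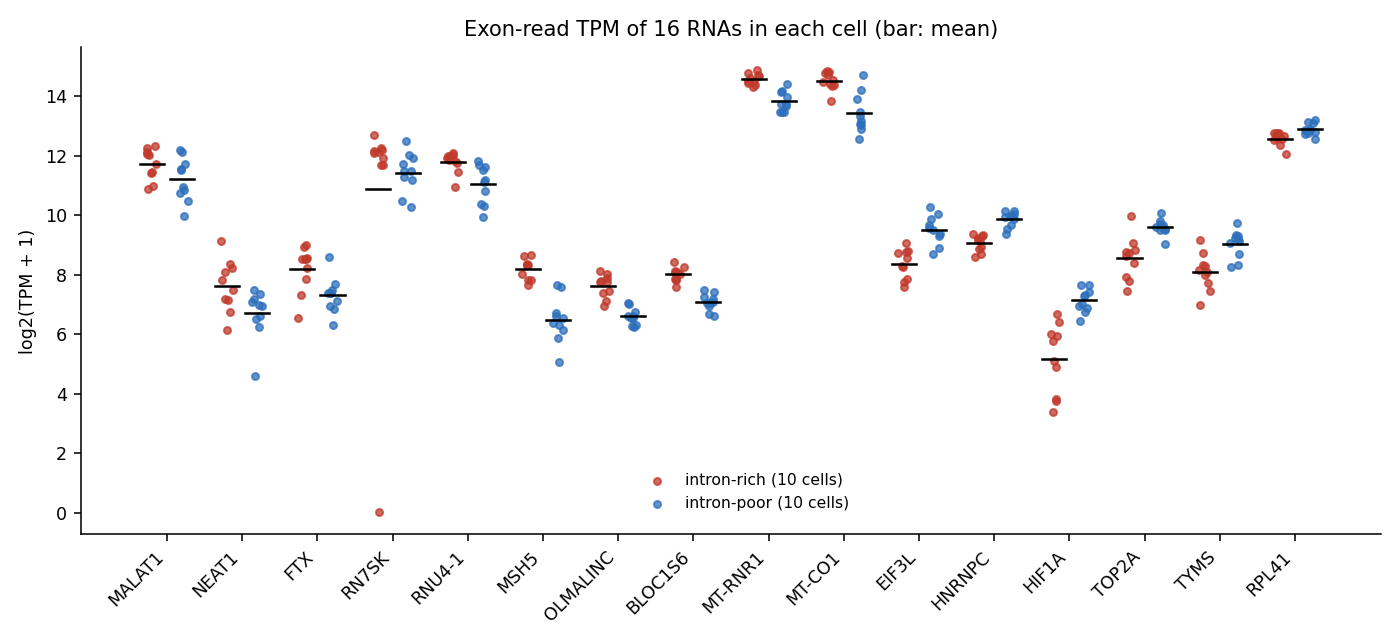
log2(TPM + 1) of 16 RNAs in each intron-rich (red) and intron-poor (blue) cell, with bars at the means. MSH5 and BLOC1S6 show no overlap, MALAT1 and NEAT1 overlap widely, and 1 intron-rich cell is close to 0 for RN7SK.

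Transcripts with detained introns are polyadenylated but kept in the nucleus by introns that are spliced late. Their median difference was 0.60 over 7 genes (0.15 with the mitochondrial covariate) and none was called. CLK4, a kinase of splicing factors, averaged 29.3 TPM in intron-rich and 5.31 TPM in intron-poor cells (adjusted p = 0.0812). OGT, the O-GlcNAc transferase, averaged 692 and 523 TPM (adjusted p = 0.349), and MAT2A 1009 and 831 TPM (adjusted p = 0.724). The hosts of small nucleolar RNAs had a median difference of 0.33 over 13 genes, of which 9 were positive and 0 were called. That median was -0.06 with the mitochondrial covariate and -0.24 in the second set of cells. GAS5 came closest, with means of 814 and 341 TPM and a limma adjusted p of 0.0529.

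Mitochondrial transcripts gave the clearest difference. Of the 15 on the list 11 rose in intron-rich cells, none fell, and all 15 differences were positive, with a median of 0.85. Over all genes tested 0.141% were called higher. These transcripts are parts of 1 mitochondrial share of TPM, so their calls are not separate results. MT-RNR1, the small ribosomal RNA of mitochondria (chrM:648-1601), had 20227 to 30480 TPM with a median of 24287 in intron-rich cells. The intron-poor cells had 11258 to 21715 TPM with a median of 13730. Its difference of 0.76 ± 0.10 (SE) had the lowest adjusted p of all genes, 0.000625. MT-CO1, a subunit of cytochrome c oxidase, averaged 23822 ± 4621 against 12237 ± 6436 TPM (SD, n = 10 each, adjusted p = 0.00644). The largest difference in the list was that of MT-ND5, a subunit of complex I, at 1.29 ± 0.23 (SE, adjusted p = 0.00778).

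All genes of the mitochondrial genome together took 15.01 ± 2.12% of TPM (SD, n = 10) in intron-rich and 8.36 ± 2.77% (n = 10) in intron-poor cells. The 9 cells between had 9.56 ± 2.35%. Over the 29 cells the Spearman correlation of the share with the unspliced sum was 0.78, described without a test because both come from 1 library. Mitochondrial genes have no introns and no unspliced values, so the share did not enter the sum. The intron-poor cells numbered 35, 38 and 53 were exceptions, at 13.7%, 12.2% and 10.5%. When the mitochondrial transcripts were left out and TPM rescaled, 13 genes were called in place of 57, of which 11 were the transcripts left out. Differences that lost their call there were of similar size, such as 3.45 ± 0.74 in place of 3.29 ± 0.73 (SE) for PAPLN (limma adjusted p = 0.0632).

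Outside the mitochondrial genome 10 genes were called higher. MSH5, a meiotic member of the mismatch repair family (chr6:31739677-31762676), had 201 to 400 TPM with a median of 320 in intron-rich cells. It had 32.4 to 200.1 TPM with a median of 86.7 in intron-poor cells. The groups did not overlap, if by a small margin, and the difference was 1.71 ± 0.28 (SE, adjusted p = 0.00559). BLOC1S6, a subunit of an endosomal complex (chr15:45587214-45615945), ran from 189.7 to 343 TPM against 95.7 to 177 TPM, again without overlap. Its mean was 1.92 times as high (limma adjusted p = 0.0293). Groups without overlap were found in 3 of the 21 genes called higher, and their share over all genes tested is not given here. OLMALINC, a long non-coding RNA, averaged 203 ± 51.3 and 97.4 ± 19.9 TPM (SD, n = 10 each, adjusted p = 0.0348).

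PAPLN, COL25A1, CSKMT and BTN2A3P had lower levels and larger differences. PAPLN, an extracellular matrix gene, was above 0 in all 10 intron-rich cells, at 16.6 to 75.9 TPM, and had a median of 0.745 TPM in intron-poor cells. COL25A1, a transmembrane collagen gene, averaged 39.8 and 5.48 TPM. CSKMT and BTN2A3P were listed at 0 in 7 of 10 intron-poor cells each and averaged 19.7 and 27.6 TPM in intron-rich cells. In the 9 cells between the groups CSKMT averaged 11.5 and BTN2A3P 0.599 TPM. Without a filter on low values limma gave adjusted p = 0.111 for CSKMT and BTN2A3P, 0.0719 for PAPLN and 0.0798 for COL25A1. LLNLF-96A1.1, CTD-2017F17.2 and STAG3 completed the 10. STAG3, a meiotic cohesin gene, is named although it lay below the level set for named genes, with means of 8.79 and 0.264 TPM and no overlap. The intron-poor cells of CSKMT, BTN2A3P, CTD-2017F17.2 and STAG3 lay below the level filter, which these genes passed through the other cells, so their calls are a description and add no support to the count of 10. MSH5 shares its locus with a read-through gene. The strand setting of the counting is not known here, and values of genes with overlapping neighbours are uncertain.

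The 36 genes lower in intron-rich cells had differences from -0.46 to -4.25 on the log2(TPM + 1) scale. HNRNPC, which binds nascent RNA, ran from 386 to 664 TPM in intron-rich and from 656 to 1129 TPM in intron-poor cells. Only the edges of the groups met, and the difference was -0.81 ± 0.14 (SE, adjusted p = 0.00644). EIF3L, a subunit of a translation initiation factor, averaged 348 ± 113.9 against 767 ± 250 TPM (SD, n = 10 each, adjusted p = 0.0101). Named after their values were seen, the translation factors EIF4A1 and EEF1A1 fell from means of 2558 and 7406 TPM in intron-poor cells to 1466 and 5151 TPM. PKM, PGK1 and LDHB, enzyme genes also chosen after their values were seen, had means of 570, 744 and 880 TPM against 1035, 1369 and 1504 TPM.

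By size of difference, the list was led by genes of moderate level. PPP3CC, a calcineurin subunit, was listed at 0 in all 10 intron-rich cells and was above 0 in 9 of 10 intron-poor cells, with a median of 33.7 TPM. GABPB1, a subunit of an ETS-family transcription factor, was above 0 in 4 of 10 intron-rich cells, none over 23.8 TPM, whereas intron-poor cells held 25.1 to 102.7 TPM. PYROXD1 and RAB5A were likewise above 0 in 4 of 10 intron-rich cells. RNF19B, a further gene called lower, had means of 0.082 TPM in intron-rich and 14.6 TPM in intron-poor cells. The intron-rich cells of PPP3CC, PYROXD1 and RNF19B lay below the level filter, which these genes passed through the other cells. Their calls are a description and add no support to the count of 36. HIF1A, the oxygen-regulated transcription factor, averaged 46.0 ± 31.7 in intron-rich and 144 ± 39.2 TPM in intron-poor cells (SD, n = 10 each, adjusted p = 0.0282). SCP2, SEC11A, PSMA2, KHDRBS1, CSE1L and SF3B3 fell too, with differences from -1.18 in SF3B3 to -2.10 in SCP2 on the log2(TPM + 1) scale. Of the 26 lower genes listed among the unspliced values, at any level, 13 had a higher unspliced mean in intron-rich cells. HIF1A, HNRNPA1 and RPS15A were among the 26 with an unspliced value of 0 in every cell of both groups. The count therefore cannot be set against the 75.2% of the 6453 genes above, which had a mean of at least 20. For HNRNPC, an example chosen after its values were seen, the unspliced mean was 399 against 164, while its exon TPM was lower.

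Lists of ribosomal protein, splicing, export, polymerase and chaperone genes had negative medians. Of 79 cytosolic ribosomal protein genes 3 fell (RPS27A, RPL7A and RPS15A), 0 rose, and 5 had a positive difference, with a median of -0.26. Over all genes 0.242% were called lower. The median of the ribosomal protein genes was -0.15 after rescaling without mitochondrial transcripts and -0.02 with the mitochondrial covariate. Their summed TPM was 119278 in intron-rich and 141617 in intron-poor cells, and the groups overlapped. RPL41 averaged 6154 ± 870 and 7650 ± 1052 TPM (SD, n = 10 each, adjusted p = 0.112). Of 27 SR proteins and hnRNPs, which steer splicing, HNRNPC and HNRNPA1 fell and the median was -0.51. In the core spliceosome SF3B3 was the 1 of 37 genes that fell, and the median was -0.43. Nuclear exosome and mRNA export genes had a median of -0.57 over 24 genes and RNA polymerase II and elongation genes -0.20 over 23, with 0 called in each. HSP90AA1 and HSPD1 fell among 9 chaperones, while HSPA8 averaged 960 and 1392 TPM without passing (adjusted p = 0.525).

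**Figure D4:**
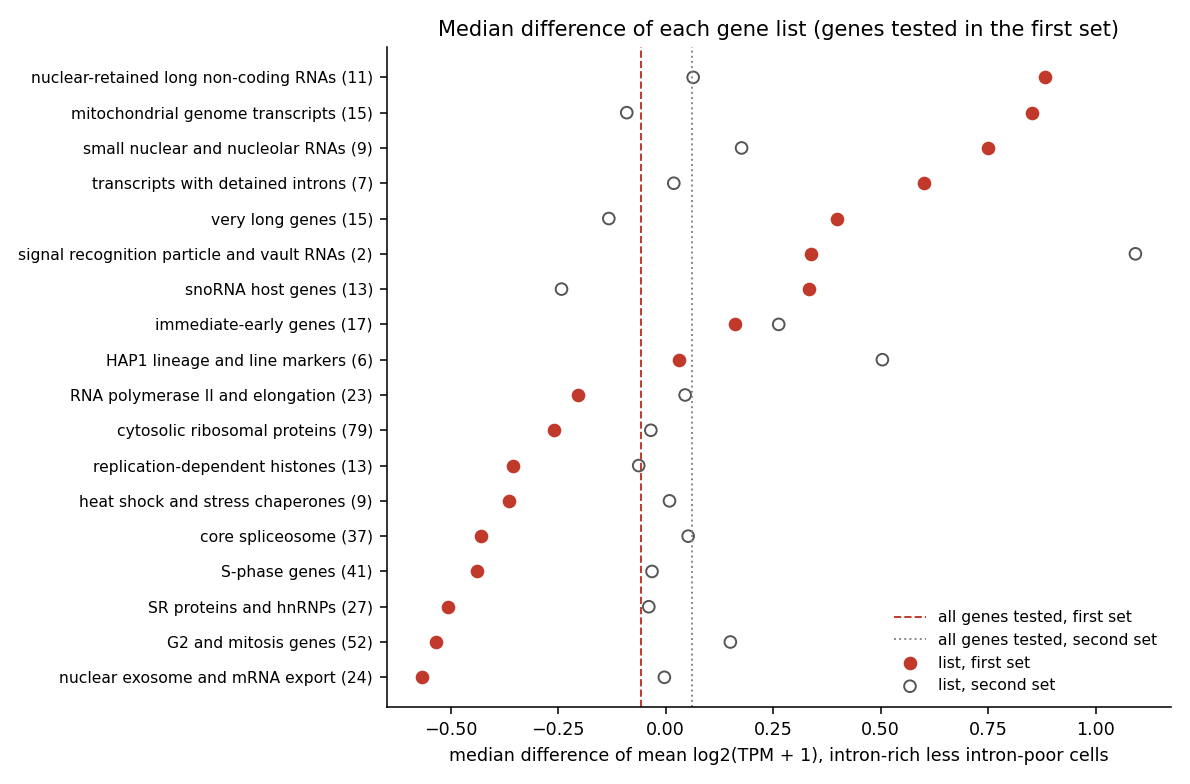
Median difference of mean log2(TPM + 1) between intron-rich and intron-poor cells for 18 gene lists, with the number of genes tested in the first set in brackets. Filled points are the first set, open points the second set, and the lines mark the medians of all genes tested, -0.06 and 0.06.

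The direction of the difference also varied with expression level. Among genes of the nucleus, 40.9% of those with a mean log2(TPM + 1) of 1 to 3 had a negative difference, against 62.3% at 5 to 7 and 80.7% of the 187 genes at 9 and above. The medians at these levels were 0.22, -0.19 and -0.28. For the same genes in the second set of cells they were 0.10, 0.03 and -0.006.

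Position in S phase overlapped between the groups. The replication score, the percent of called 40-kb bins in the 2-copy state in the DNA library of the same cell, was not used by the rule. It was 48.8 ± 6.75% (SD, n = 10) in intron-rich cells, from 39.7% to 58.5%. In intron-poor cells it was 51.4 ± 7.91% (n = 10), from 40.1% to 66.5%. The ranges coincided over most of their width, and the difference of -2.60 percentage points gave p = 0.439 in a two-sided permutation test. S-phase genes had a median difference of -0.44, with 37 of 41 negative and 0 called. TYMS, which makes thymidylate, averaged 294 ± 127 and 546 ± 164 TPM (SD, n = 10 each, adjusted p = 0.0740), and PCNA, the replication clamp, 234 and 444 TPM (adjusted p = 0.0569). Of 52 G2 and mitosis genes TOP2A fell, from 786 ± 144 to 423 ± 237 TPM (adjusted p = 0.0348), and the median was -0.53. Over all genes tested 0.242% were called lower. Replication-dependent histone genes, 13 of 52 tested, had a median of -0.36 (0.25 with the mitochondrial covariate), and H4C3 averaged 31.3 and 57.5 TPM (adjusted p = 0.372).

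Immediate-early genes, which respond within minutes to handling or growth factors, had a median of 0.16 over 17 genes (-0.05 with the mitochondrial covariate) and 0 were called. MYC averaged 580 and 535 TPM (adjusted p = 0.815) and IER2 160.8 and 104.03 TPM (adjusted p = 0.332). None of the 6 markers of the line was called. VIM averaged 170 and 283 TPM and LMNA 73.7 and 56.5 TPM, neither of them called. Of 10 blood cell markers 6 were at 0 in all 20 cells. Their summed TPM was 0 to 59.02 in intron-rich and 0 to 4.00 in intron-poor cells, the highest being PTPRC in cell 61. Very long genes, whose unspliced sum was 1.65 times as high, had a median exon difference of 0.40 over 15 genes with 0 called.

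At TPM 1 or more, the number of genes was 13440 ± 806 (SD, n = 10) in intron-rich and 12881 ± 448 (n = 10) in intron-poor cells. The difference of 559 genes gave p = 0.0723 in a two-sided permutation test, from the same libraries as the rule.

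The 27 cells numbered above 65 allowed the same selection in cells that had not been used. Their 10 highest and 10 lowest cells by unspliced sum averaged 657852 and 493869, a ratio of 1.33, so the contrast was smaller. Estimated exon depth moved with it, at 1.34 ± 0.17 and 1.097 ± 0.12 of the first-set median (SD, n = 10 each). The unspliced sum per estimated exon depth differed by a factor of only 1.09. The mitochondrial share was 3.67 ± 0.87% in intron-rich and 3.49 ± 0.46% in intron-poor cells, and its Spearman correlation with the unspliced sum was 0.12 over 27 cells. Limma called 0 of 14304 genes, with 750 at an unadjusted p under 0.05.

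Named genes of the first set were therefore set beside their values in the second. MALAT1 averaged 2330 TPM in intron-rich and 1979 TPM in intron-poor cells there, and NEAT1 100.8 and 102.4 TPM. MSH5 averaged 77.6 and 73.7 TPM, EIF3L 816 and 869 TPM, and MT-RNR1 7675 and 6709 TPM. The list of nuclear-retained RNAs had a median difference of 0.06, that of mitochondrial transcripts -0.09 and that of cytosolic ribosomal proteins -0.03, where the median of all genes was 0.06. Of the 57 genes called in the first set 56 were tested in the second, and 31 of them had the same sign. The difference between the sets was tested as an interaction over 40 cells in limma. It reached adjusted p under 0.05 for 0 genes, with a lowest value of 0.0832 and 1506 genes at an unadjusted p under 0.05, so that no gene was shown to differ between the sets.

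**Figure D5:**
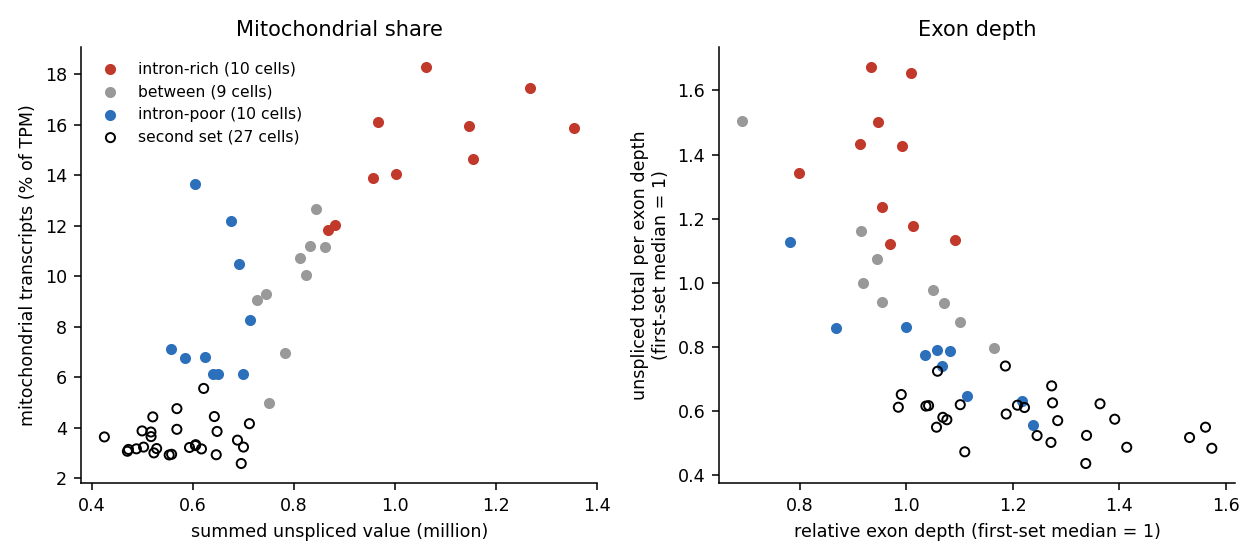
Left, mitochondrial share of TPM against the summed unspliced value of each cell. Right, unspliced sum per exon depth against relative exon depth, both as ratios to the first-set median. Filled points are first-set cells (red intron-rich, grey between, blue intron-poor) and open points the 27 cells of the second set, which keep a share of 2.57% to 5.55% at every unspliced sum.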

How the data were processed

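RNA and DNA libraries of the same sorted HAP1 cells were analysed from the deposited tables (hg38). The authors counted reads with the ramdaq pipeline on GENCODE v38 and deposited exon reads as TPM for 60708 genes. Unspliced values are deposited expected counts: the authors subtracted exon reads from gene-body reads and set negative values to 0. They are fractional and not scaled to a common total, and genes of chromosomes 1, 15 and X were not analysed here in this table. The authors state a reduction to a common read number, which the unspliced sums of some cells exceed, so absolute depth is not known here. A replication state, deposited as a score per 40-kb bin and per gene, came from AneuFinder calls on BWA (0.7.17-r1188 in the submitters' processing notes) alignments.

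Members and gene lists were chosen with earlier results of these data known. Groups were tested with limma (3.58.1, trend) on log2(TPM + 1), which understates changes of low genes, in genes with a mean of at least 1 on that scale over the 29 cells, with Benjamini-Hochberg adjustment. The replication score and gene number were tested with two-sided permutation tests (100000 resamples). Unspliced values were described only. Named genes were the 12 largest differences in each direction at adjusted p under 0.05 and a mean of at least 10 TPM, the 10 largest unspliced differences and ratios at a mean of at least 20, MALAT1, NEAT1 and the 2 most abundant members of each list. Called list members were named too, and JPX, KCNQ1OT1, CLK4, GAS5, PCNA, EIF4A1, EEF1A1, PKM, PGK1, LDHB, STAG3, RNF19B, LLNLF-96A1.1 and CTD-2017F17.2 were added after their values were seen. Some genes that the rule selects are not reported here. Exon lengths and gene types came from GENCODE v44 by gene ID. The limma step was tested on simulated data. Alternatives were other pseudocounts, filters, scalings, group sizes, orders of the cells, covariates, a rank-sum test and the second set. The mitochondrial covariate and the fit without cell 61 were added after seeing the data. The strand setting of the counting is not known here.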

Additional observations from a re-analysis of the deposited data

Results flagged for a closer look

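In each group of 10 cells, the highest or the lowest cell was marked where its gap to the next cell took more than 0.466 of the whole range (Dixon's 95% limit). This was applied to 189 groups, of per-cell measures and of the named genes on log2(value + 1) scales, and marked 21 of them. Chance marks about 1 in 20 groups, and groups made up mostly of zeros are marked more easily.

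In exon TPM, the largest gap was that of RN7SK in intron-rich cell 61, at 0.0144 where the next cell stood at 11.7. The same cell was the lowest for MT-CO1 at 13.8 and the single intron-rich cell with PTPRC, at 5.90. Intron-rich cell 18 was the highest for PYROXD1, at 5.11, and the lowest for SF3B3, at 5.74. Intron-rich cell 32 was the lowest for THOC2, at 3.32, and intron-rich cell 57 the highest for RPS15A, at 10.7. Among intron-poor cells, number 51 was the lowest for NEAT1, at 4.61, and the highest for BTN2A3P, at 2.77. CSKMT was highest in intron-poor cell 64, at 2.67, and PYROXD1 lowest in intron-poor cell 35, at 0.

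In unspliced values, AP000998.2 was highest in intron-rich cell 17, at 9.64, and RP11-1028N23.4 in intron-rich cell 55, at 10.3. Intron-poor cell 51 had the lowest value of DLGAP1, at 0, and the highest of AP000998.2, at 0.322. IMMP2L was lowest in intron-poor cell 43, at 6.68, and MECOM in intron-poor cell 34, at 5.76. The highest intron-poor values of EFNB2, PLAAT1, NT5DC3 and PER2 were 0.138, 0.263, 0.263 and 0.454.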

How the results depend on the processing

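Against 21 higher and 36 lower (0.383%) of the genes tested, calls were 11 higher and 13 lower (0.0807%) without a filter on low values, 26 higher and 54 lower (0.902%) at a filter of 3 in place of 1, 4 higher and 9 lower (0.0858%) after rescaling without mitochondrial transcripts, 14 higher and 18 lower (0.215%) with 7 against 7 cells, 40 higher and 64 lower (0.698%) with 14 against 14, 33 higher and 59 lower (0.617%) with cells ordered by unspliced value per exon read and 172 in all, 60 of them higher (1.15%) with the unspliced sum as a continuous term over 29 cells. None were called in the Wilcoxon rank-sum test (0, its p being bounded below by the group size), with the mitochondrial share as a covariate (0) and in the second set (0, with 750 at an unadjusted p under 0.05 in limma). Of the 11 mitochondrial transcripts called higher, 5 were called without the filter and 0 in each of those 3, where the covariate is the sum of these same transcripts. After rescaling, 11 of the 57 genes were left out. The cause of the other changes was not tested. The difference in the number of genes at TPM 1 or more passed with 7 against 7 cells (784 genes, p = 0.0449), per exon read (617.7 genes, p = 0.0427) and in the second set (683 genes, p = 0.0270), each in a permutation test. In the same test it did not pass with 14 against 14 cells (p = 0.0668) or with cells ordered without the 100 highest unspliced genes (p = 0.0754). Nor did the number of genes above TPM 0 (p = 0.0543) or at TPM 5 or more (224 genes, p = 0.273) in the permutation test. In the second set the replication score difference was 5.42 percentage points and that of NEAT1 -0.42.

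Differences of named genes on the log2(TPM + 1) scale changed sign as follows. In the second set they were MSH5 -0.00062, MT-ND5 -0.12, MT-CYB -0.24, MT-CO1 -0.058, OLMALINC -0.079, PYROXD1 0.15, RAB5A 0.38, SEC11A 0.15, CSE1L 0.069, SF3B3 0.15, RN7SK 0.34, SNHG1 -0.36, RPL41 0.014, IER2 -0.052, HNRNPH1 -0.27, SNRPD2 -0.040, POLR2B 0.0043, CKS1B -0.063, TCF4 -0.14, VIM 0.60, RPS27A 0.0057, HSPD1 0.038, RPL7A 0.091, HNRNPC 0.071, MT-ND1 -0.093, MT-CO2 -0.13, MT-ND4L -0.21 and MT-ND4 -0.11. With the mitochondrial share as a covariate, chosen after seeing the data, they were MT-ND6 -0.036, MT-CYB -0.37, MT-CO1 -0.12, OGT -0.012, SNHG1 -0.065, SNHG29 0.038, H2BC12 0.90, HNRNPH1 -0.32, SNRPD2 -0.21, FTO 1.06, LMNA -0.19, MT-ND1 -0.18, MT-CO2 -0.12, MT-CO3 -0.15, MT-ND4L -0.22 and MT-ND4 -0.20. With 7 against 7 cells they were MAT2A -0.021 and RN7SK 0.77, with 14 against 14 RN7SL2 -0.099 and SNRPD2 -0.013, per exon read MAT2A -0.059 and RN7SK 0.56, in the continuous fit MAT2A -0.027, RN7SK 0.46 and SNRPD2 -0.012 and with the replication score as a covariate FTO 0.067. Without intron-rich cell 61, also chosen after seeing the data, RN7SK was 0.66 and 46 of 57 calls were shared. There BTN2A3P, PAPLN, SEC11A, SF3B3, HSP90AA1, TOP2A, RPL7A and RPS15A lost their call, at limma adjusted p from 0.0515 in SF3B3 to 0.0815 in HSP90AA1. List medians changed sign with the mitochondrial covariate in snoRNA hosts (-0.06), mitochondrial transcripts (-0.12), histones (0.25) and immediate-early genes (-0.05), and in the second set in snoRNA hosts (-0.24), mitochondrial transcripts (-0.09), very long genes (-0.13), chaperones (0.0087), core spliceosome (0.05), RNA polymerase II (0.05) and G2 and mitosis genes (0.15). Some medians kept their sign but were close to 0 in the second set. These were transcripts with detained introns (0.02), nuclear exosome and mRNA export genes (-0.003), SR proteins and hnRNPs (-0.04) and S-phase genes (-0.03). With the mitochondrial covariate these 4 medians were 0.15, -0.52, -0.25 and -0.42. No paired analysis was possible because the groups hold different cells, and a shared number only joins a cell's DNA and RNA library. Absolute read depth is not known here, which leaves the precision of low values unknown.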
